A study of Mus musculus with 10 samples.

Results

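The sodium-potassium pump was examined through 5 genes, the beta subunits *Atp1b1*, *Atp1b2* and *Atp1b3* and the FXYD family members *Fxyd1* and *Fxyd5*, which were picked by name from the 23195 genes of the deposited table. All 5 were listed there, and none of them is itself a sodium-proton exchanger, so those exchangers enter below as part of a wider list. PolyA RNA was sequenced from the hearts of male mouse embryos at embryonic day 13.5 (E13.5), 5 wild type and 5 *Nos1ap* null, all of strain C57BL6/J. The null embryos carried 2 copies of the constitutive tm1d allele, in which exon 4 of *Nos1ap* is deleted in every tissue, so that the loss is not limited to the heart muscle. *Nos1ap* encodes an adaptor of neuronal nitric oxide synthase, and the comparison asks which transcripts of the heart differ when it is lost. The 10 libraries held an estimated 11328000 to 14023000 read pairs on genes, which sets the counting error of each value.

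The pump exports sodium and imports potassium at the cost of ATP, and the sodium gradient it builds drives the exchangers that move calcium and protons out of heart muscle cells. Its catalytic alpha subunit reaches the cell surface only together with a glycosylated beta subunit. FXYD proteins are small membrane proteins that bind this pair and tune its affinity for ions. FXYD1, also called phospholemman, is the form known from heart muscle, where its phosphorylation relieves a brake on the pump, and FXYD5, also called dysadherin, is known from epithelia and from effects on cell adhesion.

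The FXYD family takes its name from a motif of phenylalanine, any residue, tyrosine and aspartate, and the coding stretch that holds it is shown because it is what joins *Fxyd1* and *Fxyd5* in one family. In both sequences, from GENCODE M21 transcripts and written 5′ to 3′ on the coding strand, capitals mark the 4 codons of the motif, at residues 29 to 32 of 92 in *Fxyd1* and residues 136 to 139 of 185 in *Fxyd5*.
Fxyd1: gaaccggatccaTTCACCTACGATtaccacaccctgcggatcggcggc
Fxyd5: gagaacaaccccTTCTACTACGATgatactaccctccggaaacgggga
The motif lies near the start of the short *Fxyd1* protein and follows a long stretch in *Fxyd5*, and the 2 proteins were identical at 26 of 78 aligned residues (33.3%). Translated from the same annotation, the beta subunits were 304 (*Atp1b1*), 290 (*Atp1b2*) and 278 (*Atp1b3*) residues long. They were 43.2% (*Atp1b1* and *Atp1b2*), 38.7% (*Atp1b1* and *Atp1b3*) and 49.1% (*Atp1b2* and *Atp1b3*) identical over their aligned residues. Sequons for N-linked glycosylation (asparagine, any residue but proline, then serine or threonine) numbered 3 in *Atp1b1*, 9 in *Atp1b2* and 2 in *Atp1b3*, and 0 in either FXYD protein.

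All 5 genes are on the minus strand of GRCm38, the build of the deposited data. *Atp1b1* spans chr1:164437109-164458355, *Atp1b2* chr11:69599736-69605942 and *Atp1b3* chr9:96332655-96364442. *Fxyd1* (chr7:31051678-31057199) and *Fxyd5* (chr7:31032722-31042481) are neighbours, with 9196 bases between them. *Atp1b1* shares its chromosome with *Nos1ap*, 5844313 bases away. Exons of *Nme7*, on the opposite strand, cover 575 (18.7%) of the exon bases of *Atp1b1*. *Nme7* itself had 162 normalized counts in wild-type hearts and 148 in null hearts, far below *Atp1b1*, and reads were counted with the strand of the libraries taken into account. *Atp1b3* shares 227 windows of 50 bases with the processed pseudogene *Gm1848*, which was listed at under 1 normalized count in either genotype, so that reads assigned to one could have come from the other.

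The values are normalized counts, that is, read pairs assigned to a gene and divided by the size factor of the library. The deposited table holds only the mean of each genotype, and the counts of single libraries were worked back from the digits of those means. This settled both genotypes for *Atp1b2* and *Fxyd5* and the null libraries for *Fxyd1*. For the other values the genotype mean is the authors' mean, and only the smallest SD that any set of whole counts with that mean allows can be given. Libraries were numbered 1 to 5 within a genotype by falling size factor, which does not tell which labelled replicate a library is. *Nos1ap*, the targeted gene, was at 144 ± 14.4 normalized counts in wild-type hearts and 39.8 ± 5.20 in null hearts (SD, n = 5 each), lower in every null library than in any wild-type library. Cardiomyocyte markers were abundant in both genotypes, with *Tnnt2* at 37532 and 37652. Wild-type library 3 stood apart: the summed level of the 10 settled genes of 17 neuronal and glial markers was 1228 normalized counts there, against 189 to 231 in the other wild-type libraries and 195 to 230 in the null libraries. The 4 settled of 6 epicardial markers summed to 2357 to 2494 in wild-type hearts and 2539 to 2732 in null hearts. Among the 8 erythroid markers 7 had higher means in *Nos1ap* null, with summed means of 140597 and 175111. Leukocyte markers (10 of 10 settled) summed to 797 to 949 in wild type and 737 to 972 in null libraries, and epithelial markers (6 of 8 listed) to 26.9 to 58.0 and 19.8 to 31.1, with *Cldn6* at 0 in the null mean. The highest epithelial sum was also that of wild-type library 3, against 26.9 to 36.1 in the other wild-type libraries. Endothelial markers (7 of 7 listed) had summed means of 11994 and 12393, and smooth muscle markers (5 of 5) of 26878 and 26283. The 1 smooth muscle marker with settled counts, *Myh11*, was at 206 in wild-type library 3, against 32.9 to 69.1 in the other wild-type libraries and 28.3 to 64.8 in the null libraries. In bulk tissue, fewer cells of a type and less RNA per cell cannot be told apart.

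Beta subunit transcripts of the E13.5 heart were mostly *Atp1b1*. Per kb of exon, the scale on which genes can be compared, *Atp1b1* stood at 2436 normalized counts in wild-type hearts and 2588 in null hearts, above 99.02% and 99.10% of 16928 protein-coding genes. *Atp1b3* followed at 582 and 585 per kb. *Atp1b2* stood at 216 ± 17.5 per kb in wild-type hearts and 229 ± 16.5 in null hearts (SD, n = 5 each). *Atp1b1* thus held 75.3% of the beta subunit level per kb in wild-type hearts and 76.1% in null hearts, *Atp1b3* 18.0% and 17.2%, and *Atp1b2* 6.67% and 6.74%. Beta 1 is the subunit best known from heart muscle, and beta 2 was first known as an adhesion molecule of glia.

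*Fxyd1* was the second of the 5 genes per kb, at 694 normalized counts in wild type and 675 ± 14.3 (SD, n = 5) in *Nos1ap* null. *Fxyd5* was the lowest, at 40.5 ± 3.67 per kb in wild-type hearts and 36.9 ± 1.25 in null hearts (SD, n = 5 each), near the middle of all protein-coding genes (above 48.1% of them in wild type, 46.4% in *Nos1ap* null). The order *Atp1b1*, *Fxyd1*, *Atp1b3*, *Atp1b2*, *Fxyd5* was the same in the 2 genotypes. *Atp1b2* and *Fxyd5* were apart in every library, while the step from *Fxyd1* to *Atp1b3* could not be set against the spread, since libraries of *Atp1b3* were not settled. That step also depended on the length used: *Fxyd1* has 12 coding transcripts, its exons cover 2186 bases in all, but its longest coding transcript has 620. Divided by the longest coding transcript, *Fxyd1* stood at 2447 per kb in wild type, next below *Atp1b1* at 2909, and the order of the genes did not change.

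**Figure D1:**
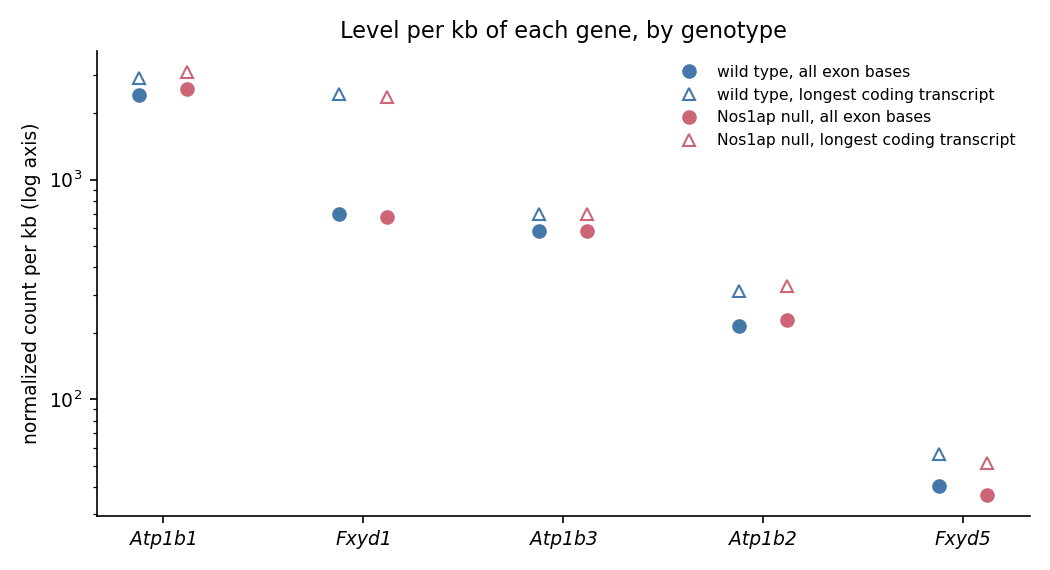
Normalized count per kb of each gene in wild type and Nos1ap null hearts, on a log axis. Filled circles divide by all exon bases and open triangles by the longest coding transcript, and the 2 lengths differ most for Fxyd1 (694 and 2447 per kb in wild type).

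Between genotypes, neither of the 2 genes that could be tested passed the test across all genes, and the ratios of all 5 lay between 0.912 and 1.06. The 2 with settled counts in both genotypes, *Atp1b2* and *Fxyd5*, entered a fit of 10281 protein-coding genes with limma on log2(normalized count + 1), in which 3 genes passed a false discovery rate of 1% with an absolute log2 fold change over 1 (0.0292% of genes tested), *Nos1ap* among them and neither of these 2. The remaining 3 had means above 1000 in at least one genotype and are given with no test.

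*Atp1b1* had a mean of 7505 normalized counts in wild-type hearts and 7972 in null hearts, a null to wild type ratio of 1.06 (0.09 on the log2 scale). The smallest SD that its libraries could have had is 196 in wild-type hearts and 143 in null hearts. The difference of 468 is larger than either bound, but the true spread is not known, so whether it exceeds the spread between libraries could not be tested. Among 2622 protein-coding genes averaging 1000 or more, 6.14% had a larger absolute log2 ratio than *Atp1b1*, and their median absolute log2 ratio was 0.03.

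*Atp1b2* was at 864, 932, 763, 914 and 932 normalized counts in wild-type libraries 1 to 5. In the null libraries it was at 952, 846, 920, 933 and 1034. The genotypes overlapped, with 3 of 5 null libraries above every wild-type library and wild-type library 3 the lowest of the 10. The means were 881 ± 71.5 in wild-type hearts and 937 ± 67.4 in null hearts (SD, n = 5 each), a log2 difference of 0.09 ± 0.06 (SE, 95% interval −0.03 to 0.21). By limma this was not distinguishable from the spread between libraries (p = 0.140, Benjamini-Hochberg adjusted p = 0.998 over all genes tested), nor by the two-sided exact permutation test over all arrangements of the libraries (p = 0.230, where the smallest p possible is 0.00794). For comparison, 3.57% of genes tested had an unadjusted limma p under 0.05, and in 0.788% the libraries of the genotypes did not overlap at all. Without wild-type library 3, where neuronal and glial markers, epithelial markers and *Myh11* were high, the log2 difference was 0.04 (95% interval −0.06 to 0.14, exact permutation p = 0.460), and their part in the result was not tested. Without null library 2, the lowest of the null libraries, it was 0.13 (95% interval 0.01 to 0.24, exact permutation p = 0.0635), and without null library 5, the highest, 0.05 (95% interval −0.07 to 0.17). The spread of *Atp1b2* within a genotype was a coefficient of variation of 7.67%. Among 2210 genes with settled counts and means of 500 to 1000, the median was 5.25% and the 90th percentile 7.76%. Sets of counts far from equal libraries were not accepted, so widely spread genes can be missing from these 2210. The place of *Atp1b2* among all genes of its level is thus not known.

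*Atp1b3* had means of 1391 and 1397 normalized counts, a log2 ratio of 0.01. Its libraries could not have had an SD under 56.8 in wild type or 50.5 in *Nos1ap* null. The difference of 5.75 between the genotypes was thus smaller than any spread the means allow. Of the 2622 genes with means of at least 1000, 88.6% had a larger absolute log2 ratio.

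*Fxyd1* had a mean of 1517 normalized counts in wild type, with an SD of at least 114, and the null libraries 1 to 5 were at 1440, 1473, 1483, 1458 and 1524. The null mean was 1476 ± 31.4 (SD, n = 5), and this SD was below the 38.7 that counting alone gives. For this set of counts 0.00175 other sets were expected to lie as near, under the limit of 0.01 that was set. The values for *Atp1b2* were nearer to the limit, at 0.00737 in wild type and 0.00508 in *Nos1ap* null. Those for *Fxyd5* were 1.1e-05 and 1.3e-07. On simulated data some sets accepted at means of 1000 and over were wrong, while those accepted under 1000 were right. Any other set of counts with the null mean of *Fxyd1* has an SD of at least 129. The null minus wild type difference of −41.3 (−0.04 on the log2 scale) was smaller in size than the smallest SD possible in wild type. It was larger in size than the null SD of 31.4. No comparison of the spread of this gene between the genotypes was made.

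*Fxyd5* was at 166, 164, 164, 158 and 197 normalized counts in wild-type libraries 1 to 5. In the null libraries it was at 153, 160, 160, 152 and 148. Wild-type library 5 was above all others, 3 of 5 null libraries were below every wild-type library, and the genotypes overlapped between 158 and 160. The means were 170 ± 15.4 in wild-type hearts and 155 ± 5.23 in null hearts (SD, n = 5 each), a log2 difference of −0.13 ± 0.08 (SE, 95% interval −0.29 to 0.03). By limma it did not pass (p = 0.117, adjusted p = 0.998), while the two-sided exact permutation test of this gene alone gave p = 0.0238, a level under 0.05 that 4.18% of the genes tested reached. The null SD was below the 12.5 that counting alone gives. Pooled within the genotypes, the coefficient of variation of *Fxyd5* was 6.84%. In limma the spread of a gene, taken from both genotypes together, is replaced by one nearer to that of genes of like level. Over 1691 genes with settled counts and means of 100 to 200, the median coefficient of variation was 9.88%. Without wild-type library 5 the log2 difference was −0.07 (95% interval −0.23 to 0.09, exact permutation p = 0.0476).

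**Figure D2:**
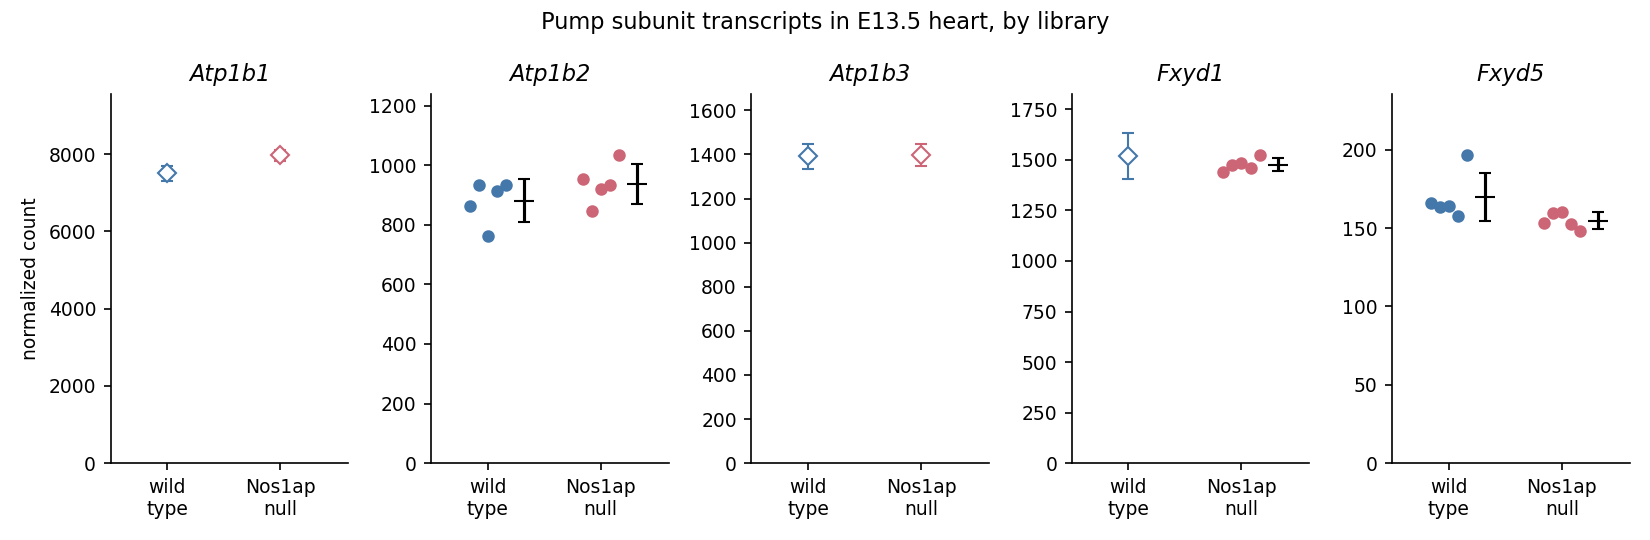
Normalized counts of the 5 genes by genotype, each panel with its own axis from 0. Filled points are single libraries in the order 1 to 5 with mean and SD beside them, and open diamonds are the authors' means with the smallest SD possible where libraries were not settled. For Atp1b2 and Fxyd5 the libraries of the 2 genotypes overlap.

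**Figure D3:**
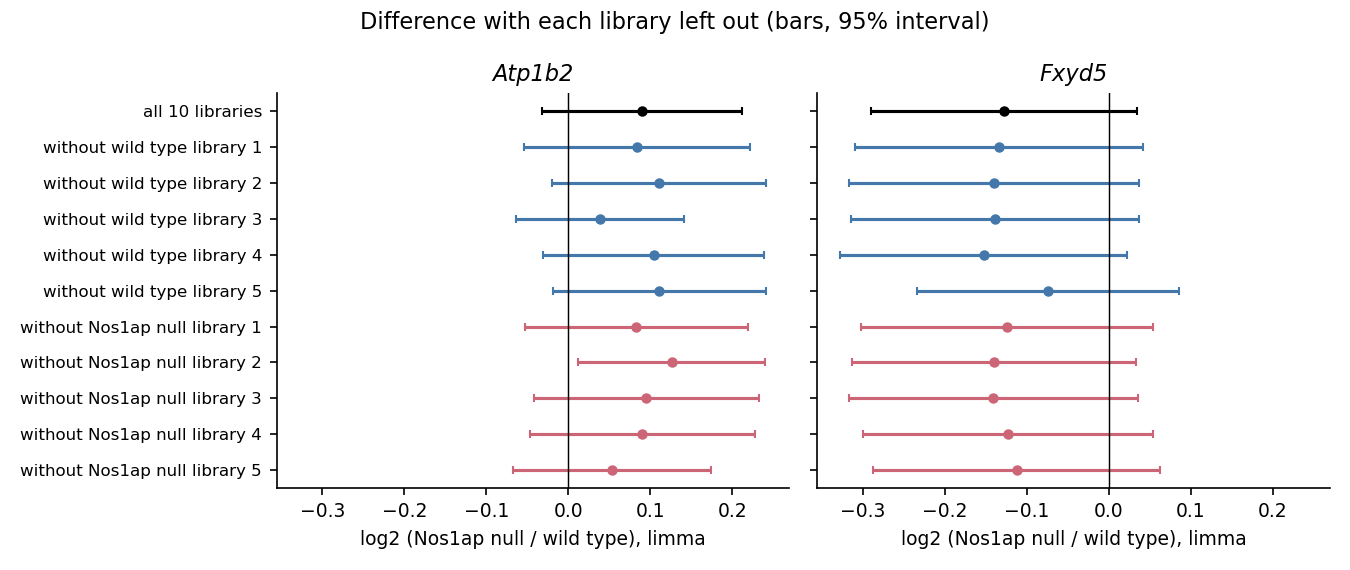
Log2 difference of Atp1b2 and Fxyd5 between Nos1ap null and wild type by limma, with all 10 libraries and with each library left out in turn. Bars are 95% intervals. The difference of Atp1b2 ranged from 0.04 to 0.13 and that of Fxyd5 from −0.15 to −0.07.

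The transcripts whose levels over the 10 libraries ran most alike to each settled gene are given as a description. They were sought among 7232 protein-coding genes with settled counts, averaging 100 or more and with both genotype means under 1000. For *Atp1b2* they were *Ror2* (Pearson r = 0.94 over 10 libraries), a receptor tyrosine kinase of Wnt5a signalling, *Prkca* (r = 0.93), protein kinase C alpha, and *Krcc1* (r = 0.93). For *Fxyd5* they were *Nepro* (r = 0.91), *Hsd17b12* (r = 0.87), an enzyme of fatty acid elongation, and *Prrx2* (r = 0.85), a homeobox factor of mesenchyme. The 99th percentile of r over the same genes was 0.81 for *Atp1b2* and 0.69 for *Fxyd5*. All these values share the same 10 libraries and their size factors. *Atp1b2* and *Fxyd5* themselves had r = −0.24.

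The wider list held 48 other genes of the pump, of sodium-proton exchange and of the transporters that work beside them. Of these, 42 were listed in the table, 28 averaged 10 or more and 23 were in the fit. None passed a false discovery rate of 1% by limma with a trend (smallest adjusted p 0.998) or with voom weights. Of all genes tested, 0.0292% passed that rate with an absolute log2 fold change over 1. An unadjusted limma p under 0.05 was found for 2 of 23, beside 3.57% of all genes tested. The libraries of the genotypes overlapped for each of the 23, and did not overlap in 0.788% of all genes tested. The median log2 difference of the 23 was −0.0046 (from −0.31 to 0.14), and that over all 10281 genes −0.0044. Of the 4 alpha subunit genes, which encode the catalytic part of the pump, 3 averaged 10 or more, and the 1 in the fit had an unadjusted p over 0.05.

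The remaining FXYD genes were low in this tissue apart from *Fxyd6*, a form known from neurons. *Fxyd6* was at 296, 304, 363, 301 and 264 normalized counts in wild-type libraries 1 to 5. In the null libraries it was at 290, 277, 262, 255 and 278. Its level was highest in wild-type library 3, in which neuronal and glial markers, epithelial markers and *Myh11* were high, and their part in the result was not tested. The log2 difference was −0.16 ± 0.07 (limma, SE, unadjusted p = 0.0400, adjusted p = 0.998), and the exact permutation p was 0.0635. Without wild-type library 3 it was −0.10. *Fxyd7*, known from brain, averaged 9.97 ± 8.18 in wild-type hearts and 5.87 ± 3.50 in null hearts (SD, n = 5 each). Its wild-type libraries ran from 4.84 to 24.4, and the highest was again library 3. *Fxyd2*, the kidney form, averaged 2.93 and 2.62, and *Fxyd3* was under 1 in both genotypes. *Atp1b4*, the remaining listed member of the beta family, averaged 1.82 and 0.970, below the level at which a difference could be read. *Nkain1* and *Nkain4*, which encode proteins that interact with beta 1, were at 106 and 111 and at 145 and 144 normalized counts, in wild type and *Nos1ap* null in that order.

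Of 12 sodium-proton exchanger genes, which trade intracellular protons for sodium, 9 were listed and 6 were in the fit, and none of the 6 had an unadjusted p under 0.05. Their log2 differences ran from −0.12 to 0.03. *Slc9a8*, an exchanger of the Golgi apparatus, was at 453 ± 23.9 in wild-type hearts and 463 ± 41.0 in null hearts (SD, n = 5 each). *Chp1*, which encodes an obligate partner of plasma membrane exchangers, was at 898 ± 43.5 and 920 ± 53.9, and the scaffold gene *Slc9a3r2* at 552 ± 45.8 and 552 ± 46.0 (SD, n = 5 each). Differences of these 3 genes were each smaller than the SD within a genotype. *Sgk1*, a kinase that raises sodium transport, was at 269 ± 28.9 and 284 ± 19.5 (SD, n = 5 each).

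Among transporters that share the sodium gradient, *Slc4a4*, a sodium-bicarbonate cotransporter, was at 271, 309, 253, 272 and 282 normalized counts in wild-type libraries 1 to 5. In the null libraries it was at 304, 304, 303, 300 and 313, with 1 null library above every wild-type library. The log2 difference was 0.14 ± 0.06 (limma, SE, unadjusted p = 0.0359, adjusted p = 0.998), the exact permutation p was 0.0397, and without wild-type library 3 the limma p was 0.113. *Slc8a1*, the cardiac sodium-calcium exchanger, had means of 2490 in wild-type hearts and 2735 in null hearts, a log2 ratio of 0.14 with no test. The largest ratios of the list were those of *Slc4a1*, the anion exchanger of red cells, at 1933 and 3337, and *Car2*, a carbonic anhydrase abundant in red cells, at 564 and 971 (log2 ratios 0.79 and 0.78, no test). Counts of neither gene were settled, although both means of *Car2* were under 1000. The erythroid marker list, which contains *Slc4a1*, was higher in *Nos1ap* null by its summed means, as given above, and its part in these ratios was not tested.

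**Figure D4:**
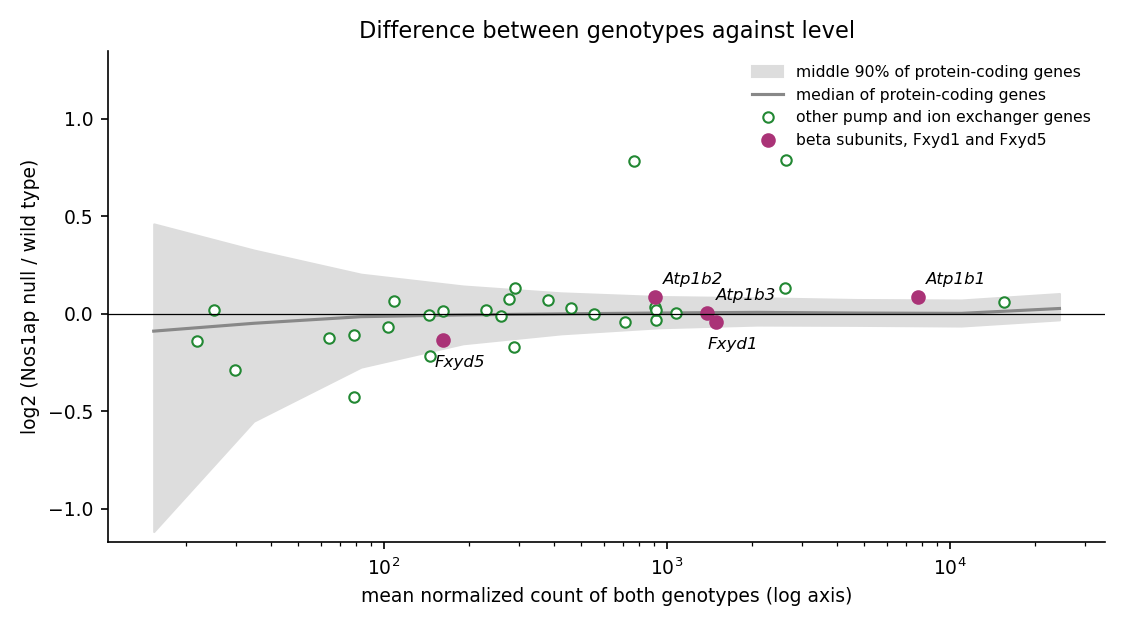
Log2 ratio of Nos1ap null to wild type means against the mean normalized count of both genotypes, on a log axis. Filled points are the 5 genes, open points the 28 other pump and ion exchanger genes averaging 10 or more, and the grey band holds the middle 90% of protein-coding genes at each level. The highest open points are Slc4a1 and Car2 (0.79 and 0.78), and Atp1b1 lies at 0.09, just above the band.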

How the data were processed

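PolyA RNA from E13.5 hearts of 5 wild type and 5 *Nos1ap* null males was sequenced as stranded paired-end libraries. The authors trimmed reads with Trimmomatic 0.36, mapped with STAR and estimated gene counts with RSEM 1.2.31 (GRCm38, GENCODE M10), with the strand of the libraries taken into account. The table, which the authors made with DESeq 1.24.0 and deposited, holds per gene the mean normalized count of each genotype, a signal on the scale of read counts. It also holds the authors' comparison as a fold ratio, a log2 fold change and p-values with adjusted p-values, which were not used.

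Each mean is a sum of whole counts divided by size factors, written with all its digits. The steps that 1 read adds were read from the smallest means, and lattice reduction found the sets of 5 counts that give each mean. A set was accepted where at most 0.01 other sets were expected to lie as near. This settled 98.7% of wild type and 98.9% of null means under 1000, and 29.8% and 35.5% from 1000 to 2000. The design had assumed such values, and libraries carry no sample name. Estimated depth was 11328000 to 14023000 read pairs. Intervals are the 95% confidence intervals by limma of the difference between the genotypes, with 5 embryos each unless a library was left out.

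limma 3.58.1 (R 4.3.3, trend, robust) was fitted to log2(value + 1) of protein-coding genes with a mean of at least 10, both means under 1000 and settled counts. Both the lattice search and the fit were tested on simulated data: every accepted set with a mean under 1000 was right, while some of those at 1000 and over were wrong. Alternatives were a pseudocount of 0.5, voom, no filter or a minimum of 50, genes of every type, upper-quartile scaling, every settled mean (chosen after seeing the data) and leaving out each library. Exact permutation tests used scipy 1.17.1. Lengths and sequences came from GENCODE M21 (GRCm38), where 16928 of 16973 protein-coding genes (99.7%) had a length. Named were the 5 genes, genes of the wider list, and for each settled gene the 3 most alike in Pearson r. Some genes that this rule names are not reported here. Members and lists were chosen with earlier results of these data known.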

Additional observations from a re-analysis of the deposited data

Results flagged for a closer look

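*Fxyd5* in wild type had 1 library far from the others. Library 5 was at 197 normalized counts and the next highest at 166, and this gap was 0.786 of the whole range, above the critical value of 0.71 of Dixon's test for 5 samples. The remaining 4 settled groups of 5 libraries (*Atp1b2* in each genotype, *Fxyd1* and *Fxyd5* in *Nos1ap* null) were below it, at 0.595, 0.433, 0.486 and 0.359. Chance alone passes this value in about 1 group in 20.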

How the results depend on the processing

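No paired analysis was possible because the deposited means carry no replicate numbers. Of all genes, 3 were called with all 10 libraries and under each of 8 other settings, and 2 to 3 with 1 library left out. *Atp1b2* stayed uncalled, with log2 differences of 0.0880 to 0.0896 over 7 other settings (adjusted p 0.998 to 1.00) and 0.0389 to 0.126 with 1 library left out (adjusted p 0.834 to 1.00). *Fxyd5* stayed uncalled, with −0.129 to −0.126 over 7 other settings (adjusted p 0.998 to 1.00) and −0.152 to −0.0737 with 1 library left out (adjusted p 0.856 to 1.00). The exact permutation p of *Fxyd5* was 0.0159 to 0.0476 over the 10 sets with 1 library left out, and that of *Atp1b2* 0.0635 to 0.460. With 1 library left out, 0.0159 is the smallest p that this test can give, and p moves in coarse steps. Of the wider list, 0 genes were called under each of 7 other settings, voom among them, and 0 with 1 library left out (smallest unadjusted p 0.00820). Dividing by the longest coding transcript in place of all exon bases moved the levels per kb to 2909 in wild type and 3090 in *Nos1ap* null for *Atp1b1*, 310 and 330 for *Atp1b2*, 698 and 701 for *Atp1b3*, 2447 and 2380 for *Fxyd1*, and 56.6 and 51.6 for *Fxyd5*. Genes with a mean of 1000 or more in either genotype were left out of the main fit by rule, and most of them had no settled counts. *Atp1b1*, *Atp1b3* and *Fxyd1* were above 1000 and lacked settled counts in at least 1 genotype. Some genes with means under 1000 were not tested either, because their counts were not settled.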
